A study of Mus musculus with 4 samples.

Results

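The kinesin superfamily was followed in 2 subpopulations of the mouse common lymphoid progenitor (CLP), named CLP_RAGhigh and CLP_RAGlow. Its members were taken as every gene on the array whose symbol is Kif followed by a number and, where present, a letter. This gave 37 genes, measured by 99 probe sets, among the 18193 genes compared. A probe set is a group of short probes for 1 transcript, and the brightest of a gene's probe sets, by its mean over the 4 arrays, stood for the gene. Members were sorted by textbook function into 12 mitotic kinesins, 13 transport kinesins and 12 others. The classes were drawn up with earlier results of these data known, so their counts describe the data and give no independent support.

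RNA from 2000 cells per sample was put through dual amplification and hybridised to Affymetrix MOE430_2 arrays, 2 for CLP_RAGhigh and 2 for CLP_RAGlow. Both groups were sorted from bone marrow of C57Bl6 mice 8 to 12 weeks old with no treatment named, CLP_RAGhigh as the fraction with high GFP and CLP_RAGlow as the fraction with low GFP. The labels do not describe the reporter, and they call the replicates biological without saying whether animals were pooled or separate, so a p-value reflects no more than the spread among these 4 samples, which may be technical. All values below are log2 of the deposited RMA intensity, differences are CLP_RAGhigh minus CLP_RAGlow in log2 units, and the number of arrays limits their precision.

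Kinesins are motor proteins that use ATP to move along microtubules or to take microtubules apart at their ends. Mitotic kinesins build the spindle, move and attach chromosomes and finish cytokinesis, and the genes of many of them are transcribed mainly late in the cell cycle. Transport kinesins carry vesicles, organelles and protein complexes through the cytoplasm in dividing and resting cells alike, and several are best known from neurons. In bone marrow, lymphoid progenitors alternate between dividing and resting phases.

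The labelled cell type was checked against marker genes. Of 8 CLP markers, 7 were measured, and their mean log2 intensity lay between 9.62 and 10.33 on the 4 arrays, with Flt3 at 10.65 to 11.17 and Il7r at 10.24 to 11.81. The means of 4 mature B-cell markers ran from 3.23 to 3.42, those of 4 T-cell markers from 4.08 to 4.30 and those of 4 erythroid markers from 3.87 to 5.12, beside a median of 3.88 over all probe sets. Means of 3 megakaryocyte markers lay between 4.41 and 4.64 and those of 3 stromal markers between 5.05 and 5.36. Of the stromal markers Pdgfrb was bright, at 8.52 to 8.99, while Col1a1 and Cxcl12 read 3.23 to 3.91. The 7 granulocyte and monocyte markers averaged 7.73, 7.62 and 8.40 on the first 3 arrays and 6.21 on CLP_RAGlow replicate 2, where S100a8 was at 3.81 against 9.60 to 10.15 elsewhere. One of them, Mpo, read 10.70 to 11.03 on the 4 arrays, about as high as Flt3. Single markers also separated the groups. The monocyte receptor gene Csf1r read 6.79 and 8.26 in CLP_RAGhigh against 9.31 and 9.54 in CLP_RAGlow, a difference of -1.90. Its list did not move with it, since 5 of the 7 markers had a higher mean in CLP_RAGhigh and 2 a lower one. The erythroid factor Klf1 read 6.94 and 6.05 against 5.24 and 3.69, a difference of 2.02. The other measured erythroid markers, Hba-a1, Epor and Alas2, differed by 0.07, -0.00 and 0.41. The lymphoid marker Ly6d read 8.86 and 8.75 against 5.88 and 6.72, a difference of 2.51. Of the 7 CLP markers, Ly6d among them, 4 had a higher mean in CLP_RAGhigh and 3 a lower one. On CLP_RAGhigh replicate 1 the immediate early gene Fos stood at 12.27 against 5.17 to 7.28. The ratio of 3′ to 5′ signal of Actb, which grows with RNA degradation and amplification, was 16.2 and 9.6 on the CLP_RAGhigh arrays and 13.5 and 24.5 on the CLP_RAGlow arrays. The part of these differences in the kinesin values was not tested.

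On the brightest probe set of each gene, the mitotic kinesins were mostly lower in CLP_RAGhigh and the transport kinesins were not. Of 12 mitotic members, 10 had a lower mean in CLP_RAGhigh and 2 a higher one, and their median difference was -0.82. Of 13 transport members, 6 had a lower and 7 a higher mean, with a median of 0.08. The 12 other members had a median of 0.07, with 4 lower and 8 higher means. Over all 18193 genes the median was 0.00, with the mean of CLP_RAGhigh lower for 49.4% of genes and higher for 50.6%.

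Both CLP_RAGhigh arrays lay below both CLP_RAGlow arrays for 4 of the 12 mitotic members, Kif22, Kif2c, Kif4 and Kif20b, for 0 of 13 transport members, and for 2 of the 12 others, Kif24 and Kif26b, where 15.8% of all genes did so. The opposite separation was seen for 0 mitotic, 0 transport and 1 other member, Kif26a, against 15.4% of all genes. No member passed an adjusted p of 0.05 in limma, nor did any of the 18193 genes, so that 0% were called in each direction. At an unadjusted limma p under 0.05, 4 kinesins were lower in CLP_RAGhigh (Kif22, Kif4, Kif2c and Kif26b) and 0 were higher, where 2.94% of all genes were lower and 2.35% higher. These calls rest on the brightest probe sets and changed with the choice of probe set.

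**Figure D1:**
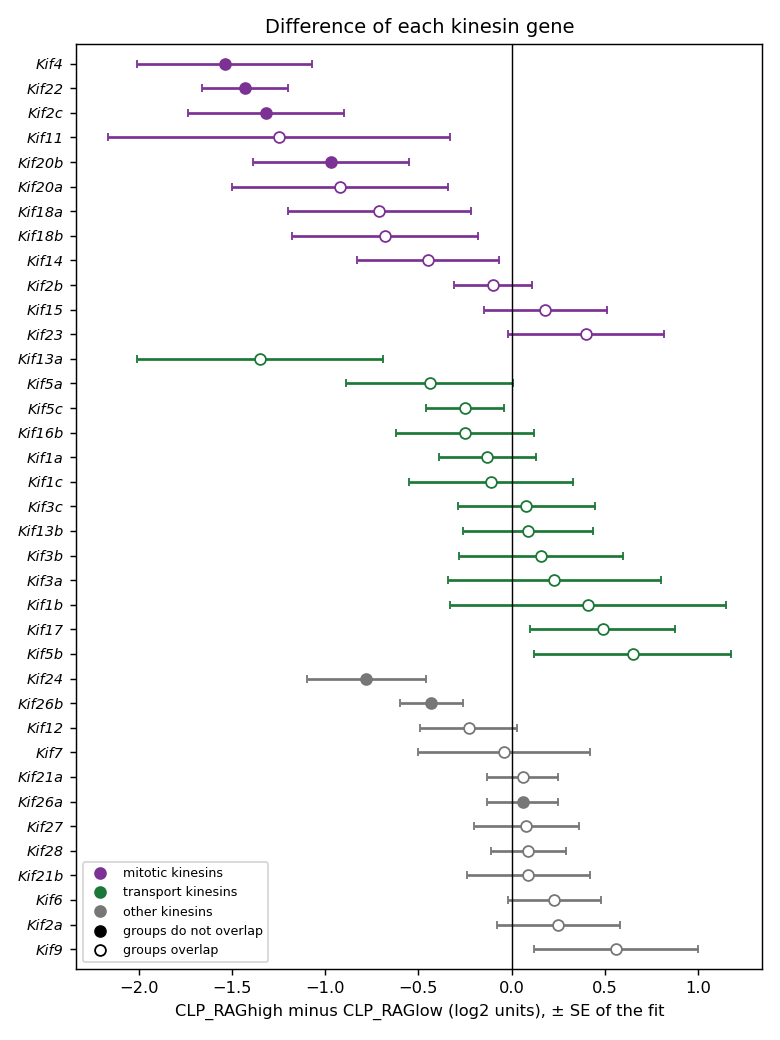
Difference of each of the 37 kinesin genes, CLP_RAGhigh minus CLP_RAGlow in log2 units, with the standard error of the limma fit (n = 2 arrays per group). Filled points mark genes whose groups do not overlap; the mitotic members run from -1.54 to 0.40 and the transport members from -1.35 to 0.65.

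On the single arrays the 12 mitotic members deviated on average by -0.55 and -0.19 from each gene's mean on CLP_RAGhigh replicates 1 and 2, and by 0.17 and 0.56 on CLP_RAGlow replicates 1 and 2. The groups did not overlap, and the arrays of a group lay about as far apart as the groups did at their nearest. For the transport members the deviations were -0.22, 0.19, 0.13 and -0.10 in the same order, with overlapping groups. The 5 measured markers of dividing cells deviated by -1.08, -0.23, 0.31 and 0.99, so the arrays stood in the same order for them as for the mitotic kinesins. In bulk RNA, fewer dividing cells and less RNA per dividing cell cannot be told apart. The 3′ to 5′ ratio of Actb was highest, at 24.5, on CLP_RAGlow replicate 2, where mitotic kinesins were also highest, and lowest, at 9.6, on CLP_RAGhigh replicate 2; its part in the order was not tested. With probe sets averaged per gene the mitotic median was -0.54 and the transport median -0.07. The mitotic median was -0.63 without CLP_RAGhigh replicate 1, and it was -0.39 without CLP_RAGlow replicate 2, the array where mitotic kinesins were highest. The transport median was -0.40 without CLP_RAGhigh replicate 2 and -0.16 without CLP_RAGlow replicate 2, so its sign rested on single arrays.

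**Figure D2:**
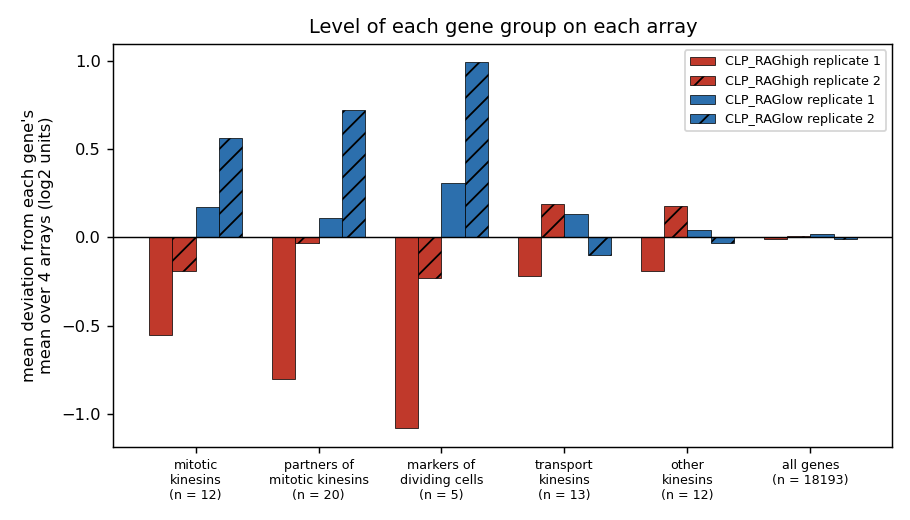
Mean deviation of each gene group from each gene's own mean over the 4 arrays, in log2 units, with a bar for each array. Mitotic kinesins run from -0.55 on CLP_RAGhigh replicate 1 to 0.56 on CLP_RAGlow replicate 2, and transport kinesins stay between -0.22 and 0.19.

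Kif22, also called Kid, is a chromokinesin that binds DNA and pushes chromosome arms away from the spindle poles. Its log2 intensity was 9.01 and 9.36 in CLP_RAGhigh and 10.52 and 10.71 in CLP_RAGlow (probe set 1437716_x_at). The CLP_RAGhigh arrays lay well below the CLP_RAGlow arrays, with a gap wider than the spread within either group. The difference was -1.43 ± 0.23 (SE, n = 2 per group), or 2.69-fold, with a limma adjusted p of 0.403, the smallest of the 37 members. The other probe sets of Kif22 also separated the groups. Probe set 1423813_at read 4.09 and 4.97 against 5.63 and 6.18, and 1451128_s_at read 3.71 and 4.06 against 6.56 and 6.55. Their differences were -1.37 and -2.67. The brightest probe set and 1451128_s_at are marked as open to cross-hybridisation, and 1423813_at is not. With such probe sets left out, 1423813_at stood for Kif22, and its limma adjusted p was 0.942. Leaving out each array in turn gave -1.60 to -1.25.

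Kif4, the mouse gene for the chromokinesin known in humans as KIF4A, works on condensed chromosomes and at the central spindle, and lies on the X chromosome. It read 5.85 and 5.03 in CLP_RAGhigh and 6.61 and 7.34 in CLP_RAGlow on its 1 probe set (1450692_at). Both CLP_RAGhigh values lay below both CLP_RAGlow values. The difference was -1.54 ± 0.47, with a limma adjusted p of 0.838, and -1.06 with an offset of 32 added before log2, which damps differences of dim probe sets.

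Kif2c, or MCAK, takes microtubules apart at kinetochores and corrects faulty attachments. It read 6.83 and 7.77 in CLP_RAGhigh against 8.72 and 8.51 in CLP_RAGlow on its brightest probe set (1437611_x_at), again without overlap. The difference was -1.32 ± 0.42, with a limma adjusted p of 0.865. This probe set is marked as open to cross-hybridisation, and the other 3 gave differences of -0.60, -0.54 and -0.04, so that the size depends on the probe set. The last of these, 1454221_a_at, read 4.33 and 4.78 against 4.70 and 4.49, with overlapping groups and no clear direction. With probe sets open to cross-hybridisation left out, it stood for Kif2c, and the difference was -0.04.

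Kif20b, which acts in the last steps of cytokinesis, read 6.74 and 5.95 against 7.24 and 7.38 (probe set 1439695_a_at). The difference was -0.97 ± 0.42, with a limma adjusted p of 0.94. Its other 3 probe sets had means below the median of all probe sets and differences from -0.43 to 0.05, and with all 4 averaged the difference was -0.36 with overlapping groups.

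**Figure D3:**
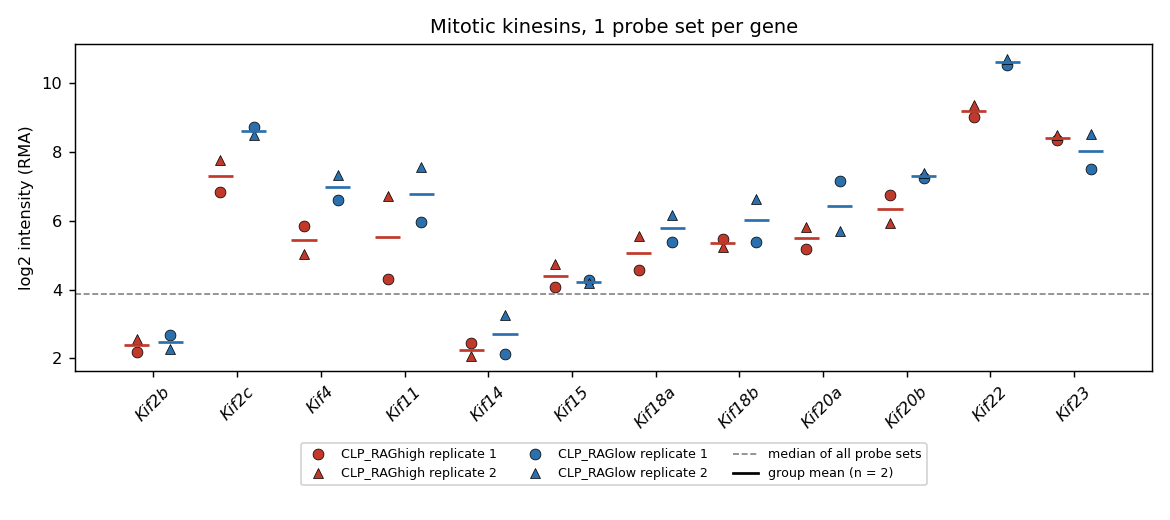
Log2 RMA intensity of the 12 mitotic kinesins on each array, with short lines for the group means (n = 2) and a dashed line at 3.88, the median of all probe sets. Kif2c, Kif4, Kif20b and Kif22 show both CLP_RAGhigh arrays below both CLP_RAGlow arrays; levels of different genes come from different probes and are not comparable.

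Promoters of these 4 genes are shown because they belong to the mitotic members whose groups did not overlap and because promoters of late cell cycle genes are known for 2 elements. The CHR, TTTGAA, is bound by the repressor complex DREAM in resting cells and by activating complexes in dividing cells, and the CCAAT box is bound by NF-Y. The windows run from 250 bases before to 50 bases after the RefSeq start of each gene (GRCm38.p6) and are printed 5′ to 3′ on the gene's strand. Capitals mark TTTGAA and CCAAT on either strand, so that TTCAAA and ATTGG are the same motifs read on the other strand. They belong to chr7:127042371-127042670 on the minus strand (Kif22), chr4:117178723-117179022 on the minus strand (Kif2c), chrX:100625815-100626114 on the plus strand (Kif4) and chr19:34922108-34922407 on the plus strand (Kif20b).
Kif22: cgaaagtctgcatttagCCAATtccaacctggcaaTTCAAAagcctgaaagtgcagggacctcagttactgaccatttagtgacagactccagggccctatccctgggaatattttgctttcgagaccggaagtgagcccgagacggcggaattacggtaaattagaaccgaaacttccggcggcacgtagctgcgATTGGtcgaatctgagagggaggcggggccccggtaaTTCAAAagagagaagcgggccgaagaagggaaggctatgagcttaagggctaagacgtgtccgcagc
Kif2c: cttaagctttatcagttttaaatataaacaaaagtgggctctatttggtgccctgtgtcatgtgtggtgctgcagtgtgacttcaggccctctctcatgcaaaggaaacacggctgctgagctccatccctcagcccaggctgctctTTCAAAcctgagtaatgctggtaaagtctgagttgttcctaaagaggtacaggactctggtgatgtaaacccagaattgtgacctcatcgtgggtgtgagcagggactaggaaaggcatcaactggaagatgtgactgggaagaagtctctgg
Kif4: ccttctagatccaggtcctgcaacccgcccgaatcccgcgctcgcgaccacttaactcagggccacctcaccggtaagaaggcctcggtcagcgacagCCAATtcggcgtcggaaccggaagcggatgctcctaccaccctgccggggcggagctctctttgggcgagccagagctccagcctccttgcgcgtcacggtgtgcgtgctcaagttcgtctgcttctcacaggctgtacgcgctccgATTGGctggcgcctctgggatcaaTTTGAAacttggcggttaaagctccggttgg
Kif20b: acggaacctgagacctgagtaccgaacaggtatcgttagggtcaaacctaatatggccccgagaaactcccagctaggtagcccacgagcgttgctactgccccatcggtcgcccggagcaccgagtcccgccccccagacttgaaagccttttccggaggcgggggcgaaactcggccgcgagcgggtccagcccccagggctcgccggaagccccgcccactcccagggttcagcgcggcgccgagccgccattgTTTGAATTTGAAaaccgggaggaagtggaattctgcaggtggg

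Kif22 held a CHR at positions -17 to -12 and a CCAAT box at -54 to -50 from the start, and a second copy of each at -215 to -210 and -233 to -229. In Kif4 a CHR at 20 to 25 followed a CCAAT box at -5 to -1. The Kif20b window had tandem CHR copies at 8 to 19 and no CCAAT box, and in Kif2c a single CHR lay at -103 to -98. A match describes the letters in the window and does not show binding.

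Windows were found for 31 of the 37 members, and for 11 mitotic, 10 transport and 10 other ones. TTTGAA on either strand was present in 9 of 11 mitotic windows (81.8%), those of Kif2c, Kif4, Kif11, Kif14, Kif15, Kif18b, Kif20b, Kif22 and Kif23. It was present in 1 of 10 transport windows (Kif1a), in 2 of 10 others (Kif26b and Kif27), and in 20.2% of the 27025 genes with a window. CCAAT on either strand was present in 7 of 11 mitotic, 3 of 10 transport and 4 of 10 other windows, beside 41.1% of all genes. Both motifs together were found in 6 mitotic, 0 transport and 2 other windows, against 7.97% of all genes. The CHR started at position -50 or later in 7 mitotic genes (Kif4, Kif11, Kif15, Kif18b, Kif20b, Kif22 and Kif23), in 1 transport and 1 other gene and in 5.72% of all genes; this limit was set after the positions were seen. The E2F motif in the forms TTTCCCGC or TTTGGCGC, searched on both strands, was held by Kif15 and Kif18a and by 1.8% of all genes. Matches did not overlap each other in any member window. Among the 9 mitotic genes with a CHR were members with separated groups, such as Kif22, and the 2 with a higher mean in CLP_RAGhigh, Kif15 and Kif23.

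Of the mitotic members whose groups overlapped, 6 had lower means in CLP_RAGhigh. Kif11, or Eg5, which slides spindle poles apart, read 4.32 and 6.73 against 5.97 and 7.58. Replicate 1 was the lower array of both groups, and the difference of -1.25 ± 0.92 was close to its error. A second probe set of Kif11, 1435306_a_at, followed the same order at 3.27 and 6.30 against 5.36 and 7.45. The third, 1452315_at, was dim and ran the other way, at 2.89 and 3.93 against 3.03 and 2.74, a difference of 0.52, and the average of all 3 gave -0.78. Without CLP_RAGhigh replicate 1 the difference of Kif11 was -0.04.

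Kif18a, which damps the oscillation of chromosomes at the metaphase plate, read 4.57 and 5.56 against 5.40 and 6.16, a difference of -0.71 ± 0.49. Its relative Kif18b, which acts on astral microtubules, read 5.46 and 5.24 against 5.40 and 6.65, with CLP_RAGlow replicate 2 alone standing high, and its difference of -0.68 ± 0.50 was -0.05 without that array. Kif20a, or MKLP2, which brings the chromosomal passenger complex to the central spindle, read 5.19 and 5.82 against 7.16 and 5.70. Here CLP_RAGlow replicate 1 alone stood high, and the difference of -0.92 ± 0.58 was -0.19 without it. The limma adjusted p of Kif11, Kif18a, Kif18b and Kif20a lay between 0.979 and 0.991.

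Kif14, which works with citron kinase in cytokinesis, and Kif2b, a kinesin-13 of the spindle known mainly from testis, were dim in both groups. Kif14 read 2.45 and 2.06 against 2.14 and 3.27, and Kif2b read 2.20 and 2.57 against 2.68 and 2.28. Both stayed below the median of all probe sets on all 4 arrays, so that a low level and no level cannot be told apart. With the offset of 32 their differences were -0.08 and -0.01.

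Kif15, which can share the work of Eg5, and Kif23, or MKLP1, the motor of the centralspindlin complex, were the members with higher means in CLP_RAGhigh. Kif15 read 4.07 and 4.75 against 4.27 and 4.19, a difference of 0.18 ± 0.33. Kif23 read 8.34 and 8.50 against 7.52 and 8.53, so that 3 arrays were alike and CLP_RAGlow replicate 1 stood low. Its difference was 0.40 ± 0.42, and 0.08 with its 3 probe sets averaged. Neither differed from 0 by more than its standard error.

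The other probe sets of the mitotic members were examined as well. Of all 25 probe sets for mitotic members, 19 were lower and 6 higher in CLP_RAGhigh. Above the median brightness there were 15, with 13 lower and a median of -0.97, and 7 of these separated the groups downward and 0 upward. Among 19428 probe sets of all genes above that brightness, 9704 were lower, with a median of 0.00, and 17.0% separated the groups downward and 16.8% upward. Several probe sets of a gene share its RNA and are not independent.

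**Figure D4:**
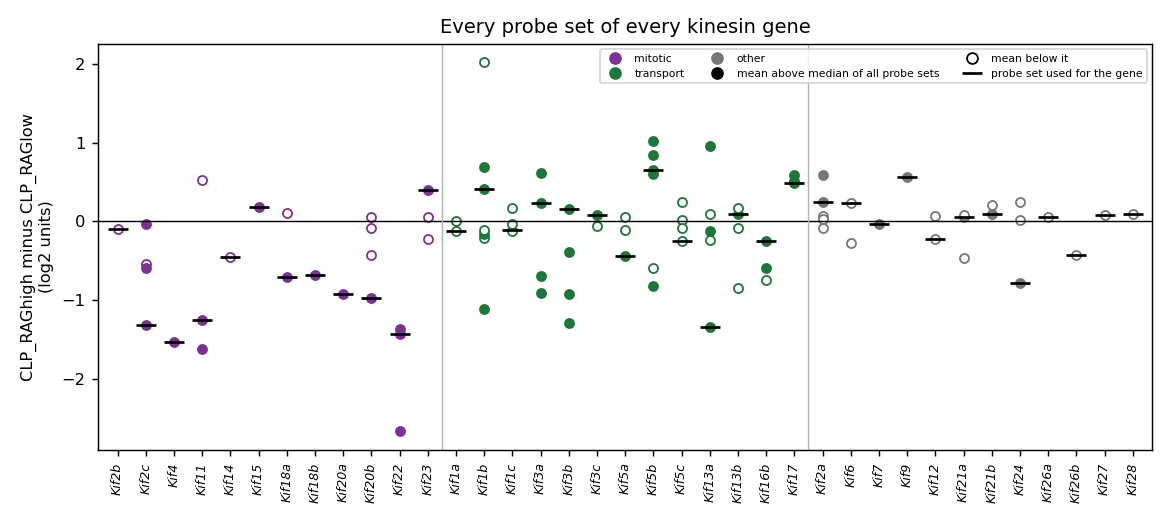
Difference of all 99 kinesin probe sets, CLP_RAGhigh minus CLP_RAGlow in log2 units, by gene and class. Filled points have a mean above the median of all probe sets and black dashes mark the probe set used for the gene; the 3 probe sets of Kif22 lie between -2.67 and -1.37, while those of Kif13a and Kif5b fall on both sides of 0.

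Among the transport kinesins no gene separated the groups on its brightest probe set. Kif5b, the widely expressed heavy chain of conventional kinesin, read 7.83 and 7.70 in CLP_RAGhigh and 6.41 and 7.82 in CLP_RAGlow. Of the 4 arrays only CLP_RAGlow replicate 1 was low, and the difference of 0.65 ± 0.53 was -0.06 without it. The probe sets of Kif5b disagreed, since 1418428_at (8.34 and 6.82 against 6.64 and 6.48) and 1418427_at (6.29 and 6.50 against 5.56 and 6.03) were higher in CLP_RAGhigh without overlap, and 1418429_at (7.52 and 6.53 against 7.60 and 8.08) was lower without overlap. No direction is given for this gene. Its relatives Kif5a and Kif5c, both best known from neurons, had differences of -0.44 ± 0.45 and -0.25 ± 0.21, with Kif5c below the median brightness on all arrays.

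Kif17, a kinesin-2 that works as a homodimer, read 8.44 and 8.13 against 7.40 and 8.19, a difference of 0.49 ± 0.39. The groups overlapped, and the 3 probe sets gave differences from 0.49 to 0.59. CLP_RAGlow replicate 1 was the lowest array on all 3, and without it the difference of Kif17 was 0.09. Kif3a and Kif3b, the pair that forms heterotrimeric kinesin-2 of cilia and vesicles, had differences of 0.23 ± 0.57 and 0.16 ± 0.44, and Kif3c, their neuronal relative, 0.08 ± 0.37. The 4 probe sets of Kif3a disagreed. Probe set 1436560_at was higher in CLP_RAGhigh without overlap at 0.62, while 1420375_at and 1455652_at were lower with overlap, at -0.69 and -0.91. No direction is given for Kif3a. For Kif3b the other 3 probe sets were lower in CLP_RAGhigh, at -1.29, -0.92 and -0.39. Their average with the brightest was -0.61, with CLP_RAGhigh below and no overlap.

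Among the kinesin-3 motors, Kif1c, a carrier of dense-core vesicles and integrins, read 6.93 and 7.85 against 7.31 and 7.69, with wide overlap and a difference of -0.11 ± 0.44. Kif13b, first known for carrying a discs large protein, read 7.16 and 7.53 against 7.31 and 7.21, and its difference was 0.09 ± 0.35. Kif16b, a motor of early endosomes, read 6.76 and 7.29 against 7.34 and 7.21, a difference of -0.25 ± 0.37. Its other 2 probe sets, at -0.59 and -0.75, separated the groups downward. Kif1a, a neuronal motor, was dim at -0.13 ± 0.26, and Kif1b, which carries mitochondria and synaptic vesicle precursors, had 0.41 ± 0.74. The 7 probe sets of Kif1b disagreed. Probe set 1455182_at read 3.52 and 3.51 against 4.20 and 5.05, lower in CLP_RAGhigh without overlap at -1.11, and 1451642_at, with a mean below the median brightness, read 2.47 and 5.88 against 1.83 and 2.46, higher without overlap at 2.02. No direction is given for Kif1b.

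Kif13a, which carries mannose 6-phosphate receptors and recycling endosomes, is named here after its values were seen. Its probe sets opposed each other, as those of Kif5b, Kif1b and Kif3a did. The brightest, 1447853_x_at, read 4.49 and 5.66 against 7.20 and 5.64, a difference of -1.35 ± 0.66 that was -0.57 without CLP_RAGlow replicate 1. The next, 1455746_at, read 5.69 and 5.52 against 5.01 and 4.28, higher in CLP_RAGhigh by 0.96 and without overlap. Averaged over its 5 probe sets the difference was -0.13. Over all 51 transport probe sets, 29 were lower and 22 higher in CLP_RAGhigh, with a median of -0.09. Over the 29 transport probe sets above the median brightness, 14 were lower and 15 higher, with 4 separated in each direction (13.8%), beside 17.0% downward and 16.8% upward among all probe sets of that brightness.

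**Figure D5:**
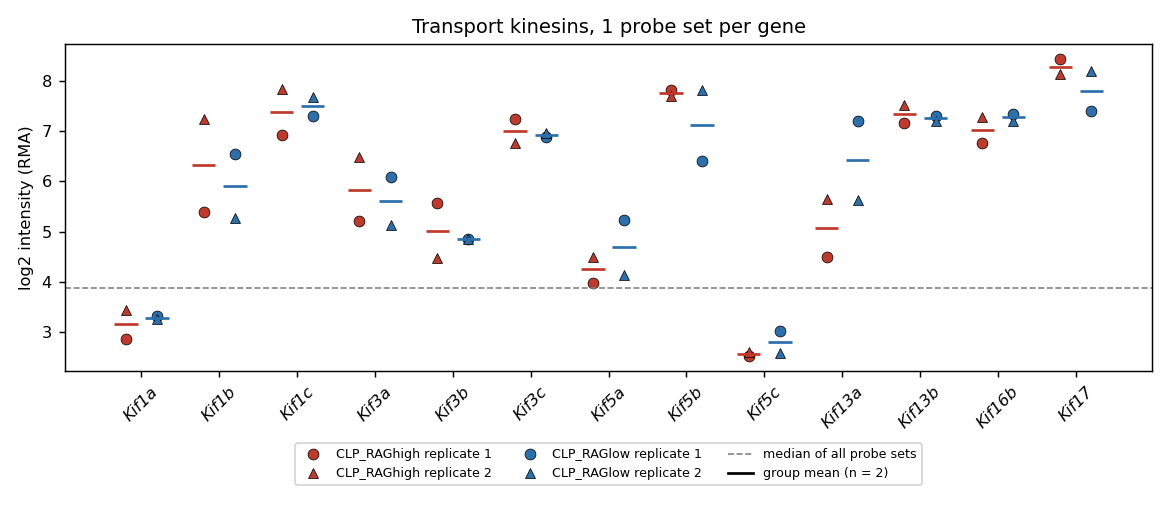
Log2 RMA intensity of the 13 transport kinesins on each array, drawn as for the mitotic members. The groups overlap for all 13 genes, and Kif1a and Kif5c lie below the dashed line at 3.88.

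Of the 12 kinesins in neither class, 7 had means below the median brightness and 5 above. Kif24, a kinesin-13 of the centriole that holds back cilium formation, read 4.68 and 4.91 in CLP_RAGhigh and 5.62 and 5.54 in CLP_RAGlow. The groups lay apart by more than the spread within them, with a difference of -0.78 ± 0.32 and a limma adjusted p of 0.928. Its other 2 probe sets were dim, with differences of 0.01 and 0.24, and averaged over all 3 the difference was -0.18 with overlapping groups. Kif26b, a kinesin-11 without motor activity, read 2.69 and 2.69 against 3.07 and 3.18, far below the median brightness, and its difference of -0.43 ± 0.17 was -0.08 with the offset of 32. Kif26a, the only member above in both CLP_RAGhigh arrays, was equally dim, at 3.16 and 3.18 against 3.14 and 3.09.

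Kif2a, a microtubule depolymerase used in spindles and in neurons, read 8.29 and 8.79 against 8.13 and 8.44, a difference of 0.25 ± 0.33. Counted as mitotic, it would have been a further member with a higher mean in CLP_RAGhigh. Kif21b, which regulates microtubule growth and is known from neurons and immune cells, had a difference of 0.09 ± 0.33. For the cilium-associated Kif7 and Kif9 the differences were -0.04 ± 0.46 and 0.56 ± 0.44. The remaining members, Kif6, Kif12, Kif21a, Kif27 and Kif28, lay between -0.23 and 0.23.

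Motors whose symbols fall outside the rule were not lower in CLP_RAGhigh. All 5, including Cenpe, the kinetochore motor that gathers chromosomes at the metaphase plate, and Kifc1, a minus-end motor that focuses spindle poles, had overlapping groups and differences from 0.05 to 0.25. Cenpe read 6.56 and 7.32 against 6.56 and 7.17, a difference of 0.08 ± 0.45 that was -0.35 with its probe sets averaged.

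The 20 partners of mitotic kinesins were mostly lower in CLP_RAGhigh, with a median of -1.07, 16 lower and 4 higher means, 9 separated downward and 1 upward, where 15.8% and 15.4% of all genes did so. The 1 upward was Ckap2, a microtubule-binding protein of the spindle named here after its values were seen, at 6.43 and 7.97 against 6.17 and 6.12 (1.06 ± 0.57). None passed with limma over all genes, and 5 were lower and 0 higher at an unadjusted limma p under 0.05, beside 2.94% and 2.35% of all genes. Anln, the cytokinetic scaffold anillin, read 5.04 and 6.17 against 7.77 and 8.25 (-2.41 ± 0.50, limma adjusted p = 0.587). Birc5, or survivin, of the chromosomal passenger complex, read 4.49 and 5.75 against 6.73 and 6.67 (-1.58 ± 0.50). Its complex partner Aurkb and the spindle assembly factor Tpx2 differed by -1.25 ± 0.36 and -2.11 ± 0.61. With probe sets averaged the median of the 20 genes was -0.58, and Anln and Tpx2 were at -0.83 and -0.86. On the brightest probe sets the median was -0.29 without CLP_RAGhigh replicate 1 and -0.61 without CLP_RAGlow replicate 2. Cell cycle genes were already known to be lower in CLP_RAGhigh when these lists were drawn up, so the partners give no independent support.

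Of the light chains and adaptors of transport kinesins 5 were measured, and 1 stood apart. Kifap3, the adaptor that joins Kif3a and Kif3b, read 5.64 and 5.24 in CLP_RAGhigh and 8.22 and 7.06 in CLP_RAGlow. On the brightest probe sets its difference of -2.20 ± 0.50 (limma adjusted p = 0.634) was larger than that of any kinesin gene. With probe sets averaged it was -1.02, smaller than the differences of Kif22 (-1.83) and Kif4 (-1.54). Klc1, Klc3, Klc4 and Kifbp had differences between -0.04 and 0.45. Of 13 measured partners of transport kinesins, 8 had higher and 5 lower means, with a median of 0.08. None passed with limma over all genes, and 2 were higher and 0 lower at an unadjusted limma p under 0.05, beside 2.35% and 2.94% of all genes. Bicd2, an adaptor of dynein, read 8.35 and 8.46 against 7.57 and 7.19 (1.02 ± 0.33), and Trak1, which links kinesin-1 to mitochondria, read 8.25 and 7.98 against 7.07 and 7.35 (0.91 ± 0.34). With probe sets averaged these became 0.28 and 0.14.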

How the data were processed

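The deposited values are intensities on a linear scale, calculated per probe set by the authors with RMA, per the labels and the series' design text. RMA corrects background and normalizes between arrays; its software and version were not given in the sources used here. Without detection calls, low expression and background cannot be separated.

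Log2 was taken from these values. Of 45037 probe sets other than controls, the 34945 that the platform annotation gives to a single gene were kept. Genes are called dim below 3.88, the median log2 intensity over every probe set. All 18193 genes, 2 arrays per group, were fitted in R 4.3.3 by limma 3.58.1, using lmFit and eBayes with a trend on intensity. Tests were two-sided, p-values were adjusted by Benjamini-Hochberg over the whole table with a threshold of 0.05, and the steps were tested on simulated data. Gene classes are described by counts and medians with no test of the class. Values on each array are given for all mitotic members, for transport members with separated groups or among the 5 brightest, for other members with an unadjusted p under 0.05, and for up to 4 partners per list; further names were chosen after their values were seen. The members and lists were chosen with earlier results of these data known. Alternatives covered the probe set choice, cross-hybridising probe sets, an offset of 32, a brightness filter, array scaling, a replicate block, the trend, and leaving out each array. Promoter windows are from RefSeq (GRCm38.p6). Coordinates are given for those windows only, since no build is named for the arrays. Figures were drawn with matplotlib 3.10.9.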

Additional observations from a re-analysis of the deposited data

How the results depend on the processing

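With each alternative run, 0 kinesin genes passed the adjusted threshold, while over all genes 2 passed with probe sets averaged, 1 with only genes above the median brightness, 3 with quantile normalization and 7 with the replicate block. The replicate numbers are shared by the groups, but the labels do not say that arrays of the same number were paired. Across 18193 genes such arrays did not deviate together (correlation of deviations -0.025). For the mitotic kinesins, however, replicate 1 was the lower array of both groups, at -0.55 against -0.19 and 0.17 against 0.56. The correlation over all genes therefore cannot decide whether a block belongs in the fit. At an unadjusted limma p under 0.05 the block brought in Kif11 and dropped Kif26b. Averaging probe sets dropped Kif2c. Leaving out cross-hybridising sets also dropped Kif2c and brought in the transport members Kif3b, at -0.92, and Kif13a, at 0.96. Median centring brought in Kif24, and the fit without a trend brought in Kif20b and Kif24 and dropped Kif26b. The brightness filter removed Kif26b. Kif22 and Kif4 stayed under this p in every alternative that kept all arrays. The mitotic median stayed negative in all alternatives. It was -0.54 with probe sets averaged, -0.54 with the offset of 32, and -1.07 to -0.39 when 1 array was left out, and array scaling moved it only to -0.81 (centred on the median) and -0.78 (quantile). The transport median ran from -0.40 to 0.16 when 1 array was left out. It was -0.07 with probe sets averaged.

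Counts of genes with separated groups grow when 1 array is left out, because 3 arrays overlap less easily. Over all genes such settings separated 27.0% to 39.7% downward and 27.0% to 40.9% upward. For mitotic members they were 6 to 9 downward and 0 to 1 upward, for transport members 0 to 7 downward and 2 to 5 upward, and for the others 2 to 6 downward and 2 to 8 upward. With all arrays, mitotic members had 3 downward with probe sets averaged, 3 without cross-hybridising sets and 5 with quantile normalization, and 0 upward in each. Transport members had 2 downward with probe sets averaged, 2 downward and 1 upward without cross-hybridising sets, and 1 downward with quantile normalization. The others had 1 downward and 2 upward with probe sets averaged, 1 and 0 above the median brightness, and 2 and 3 upward with median centring and quantile normalization. Over all genes the shares downward and upward were 15.2% and 15.4% with probe sets averaged, and 15.5% and 15.3% without cross-hybridising sets. They were 17.4% and 16.6% above the median brightness, 15.5% and 17.1% with median centring, and 16.5% each with quantile normalization.

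Of 433 values of the 37 kinesins under alternatives, 399 kept their sign. The 34 others came from 22 genes. Leaving out 1 array gave -0.30 to 0.10 for Kif2b, -1.02 to 0.11 for Kif14, -0.16 to 0.52 for Kif15, -0.11 to 0.90 for Kif23, -0.42 to 0.16 for Kif1a, -0.51 to 1.34 for Kif1b, -0.57 to 0.35 for Kif1c, -0.40 to 0.87 for Kif3a, -0.39 to 0.72 for Kif3b, -0.16 to 0.32 for Kif3c, -1.0 to 0.11 for Kif5a, -0.06 to 1.36 for Kif5b, -0.10 to 0.28 for Kif13b and -0.51 to 0.01 for Kif16b. Among the others it gave -0.64 to 0.56 for Kif7, -0.47 to 0.00 for Kif12, -0.05 to 0.23 for Kif21b, -0.18 to 0.33 for Kif27 and -0.15 to 0.34 for Kif28. With probe sets averaged Kif3a was at -0.19, Kif3b at -0.61, Kif13b at -0.17, Kif6 at -0.02 and Kif21a at -0.11. Without cross-hybridising sets Kif3b was at -0.92 and Kif13a at 0.96, and Kif7 was at 0.01 with the offset and with quantile normalization. None of these genes had passed, and the cause was not tested.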
